A study of Rattus norvegicus with 54 samples.

Results

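The fatty acid desaturases Scd1, Fads1 and Fads2 were examined in 3 rat tissues: liver, epididymal white fat (adipose tissue below) and gastrocnemius muscle. They were chosen by symbol from the gene names of the array, and are 3 of the 19802 genes tested, each measured by 1 probe. A further 3 probes carry the symbol Scd, which was kept apart from Scd1. Male Sprague-Dawley rats received a high-fructose diet with nordihydroguaiaretic acid, a lignan of the creosote bush (HFrD-NDGA), the high-fructose diet alone (HFrD) or standard chow. The sources used here disagree on the NDGA content (2.5 or 2.4 g, the first of them given per g of diet in the labels, and both per g and per kg in the methods) and on the time on diet (16 or 8 weeks), and the rats' age is not given in them. Each diet and tissue has 1 group with INS in its label and 1 without. What INS stands for is stated nowhere in those sources. This makes 18 groups of 3 single-colour arrays, 54 in all. Per the methods, RNA of the rats of a group was pooled, and nothing says that the 3 arrays of a group came from separate pools. The p-values below therefore measure the spread between arrays and not between rats. Intensities are given as log2 after scaling of all arrays to 1 distribution, and a level is called above background where the deposited detection p was under 0.05.

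Scd1 encodes stearoyl-CoA desaturase, which puts a double bond at the delta-9 position of saturated acyl-CoAs and so makes oleate and palmitoleate, the main monounsaturated fatty acids of triglycerides. Fads2 encodes the delta-6 desaturase, the first step in turning dietary linoleate and alpha-linolenate into long polyunsaturated fatty acids, and Fads1 the delta-5 desaturase, which acts after 1 round of elongation to make arachidonate and eicosapentaenoate. These enzymes lie in the endoplasmic reticulum and take electrons through cytochrome b5 and its reductases. In rodent liver their genes are known targets of SREBP-1c and PPAR-alpha, and Scd1 is also a known target of the carbohydrate-responsive factor ChREBP.

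The promoters are shown because Scd1 and Fads2 moved together in liver while Fads1 moved less. Each run holds 250 bases before and 50 bases from the annotated start site, taken from RefSeq on build GRCr8, 5′ to 3′ on the gene's own strand. All 3 symbols matched an entry, Scd1 through a gene that RefSeq now calls Scd. Fads1 and Fads2 lie near each other on chromosome 1, on opposite strands. Capitals mark the matches of 4 motifs searched on both strands: the CCAAT box (CCAAT), the GC box (GGGCGG), the E-box (CANNTG) and the TATA box (TATAAA).
Scd1 promoter, chr1:253231682-253231981, minus strand: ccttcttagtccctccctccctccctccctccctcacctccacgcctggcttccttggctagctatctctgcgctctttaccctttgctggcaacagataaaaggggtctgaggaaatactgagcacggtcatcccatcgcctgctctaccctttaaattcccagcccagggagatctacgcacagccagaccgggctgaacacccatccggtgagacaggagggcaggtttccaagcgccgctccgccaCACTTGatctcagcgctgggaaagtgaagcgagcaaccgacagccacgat
Fads1 promoter, chr1:216252442-216252741, plus strand: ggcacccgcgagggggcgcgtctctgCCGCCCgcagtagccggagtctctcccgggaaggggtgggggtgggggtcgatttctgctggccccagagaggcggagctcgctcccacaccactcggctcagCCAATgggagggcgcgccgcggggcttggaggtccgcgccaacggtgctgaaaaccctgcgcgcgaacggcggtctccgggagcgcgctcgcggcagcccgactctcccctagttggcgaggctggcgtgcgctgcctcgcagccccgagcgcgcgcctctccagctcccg
Fads2 promoter, chr1:216171984-216172283, minus strand: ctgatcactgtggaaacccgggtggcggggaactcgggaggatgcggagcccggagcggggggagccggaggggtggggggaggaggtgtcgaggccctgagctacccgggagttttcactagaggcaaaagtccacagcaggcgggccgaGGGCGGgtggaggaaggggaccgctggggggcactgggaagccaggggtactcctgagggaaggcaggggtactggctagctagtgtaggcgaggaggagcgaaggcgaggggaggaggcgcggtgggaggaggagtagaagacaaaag
The Scd1 window held 1 E-box, which 72.1% of the 33469 promoters of the same length also hold. That E-box began at the annotated start site itself and not before it. The Fads1 window held a CCAAT box 121 bases before the start site (37.5% of promoters hold one) and a GC box on the opposite strand (33.1%). The Fads2 window held a GC box 99 bases before the start site. No match overlapped another. The TATA box had no match in these windows, and 14.2% of all promoters held it. GC bases made up 58.3% of the Scd1 window, 74.3% of the Fads1 window and 67.3% of the Fads2 window.

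The 3 genes had different tissue patterns. Fads1 was above background on all 54 arrays and fell into 3 separate bands: its group means lay between 13.84 and 14.82 in liver, between 11.83 and 12.38 in adipose tissue and between 9.45 and 10.09 in muscle. Fads2 lay between 12.17 and 13.38 in liver, and between 5.14 and 6.36 in the other two tissues, where it was above background on all 3 arrays of 1 group only, adipose HFrD with INS. That group was not the brightest of them. Muscle HFrD-NDGA without INS, at 6.36, was on no array above background, as the lowest level above background differed between arrays. Scd1 had its highest group means in adipose HFrD with INS (14.83 ± 0.10, SD, n = 3), adipose HFrD (14.52 ± 0.09) and liver HFrD (14.43 ± 0.04). The arrays of the last pair overlapped. Its 4 chow groups in liver and adipose tissue lay between 10.60 and 11.09, under every HFrD-NDGA and HFrD group of those tissues, and its muscle groups lay between 4.38 and 7.84.

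On chow without INS, Fads1 was 4.92 (SE 0.10) higher in liver than in muscle on the log2 scale, 2.39 (SE 0.10) higher in liver than in adipose tissue and 2.53 (SE 0.10) higher in adipose tissue than in muscle (adjusted p = 1e-33, 5.27e-23 and 8.85e-24). Of all genes, 70.4%, 69.6% and 65.8% passed in these 3 comparisons. Fads2 on chow was at least 46.5-fold higher in liver than in muscle and at least 62.1-fold higher in liver than in adipose tissue (adjusted p = 4.39e-36 and 2.68e-35). Scd1 on chow was at least 20.9-fold higher in liver and at least 17.6-fold higher in adipose tissue than in muscle (adjusted p = 6.28e-29 and 5.61e-28). Liver and adipose tissue differed by 0.25 (SE 0.16) for Scd1 on chow, which did not pass (adjusted p = 0.15). It passed with a floor of 64 (0.25, adjusted p = 0.0472), and passed with the sign turned when each array was centred on its median in place of the common distribution (-0.47, adjusted p = 0.0471). A bound ("at least") sets the brighter group against the lowest intensity that was above background on each array, or the dim probe's own value where that was higher. Here and below, the adjusted p beside a bound belongs to the fitted change, in which values not above background entered as they were. The bound itself was not tested. In a bulk tissue, fewer cells of a type and less RNA per cell cannot be told apart.

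**Figure D1:**
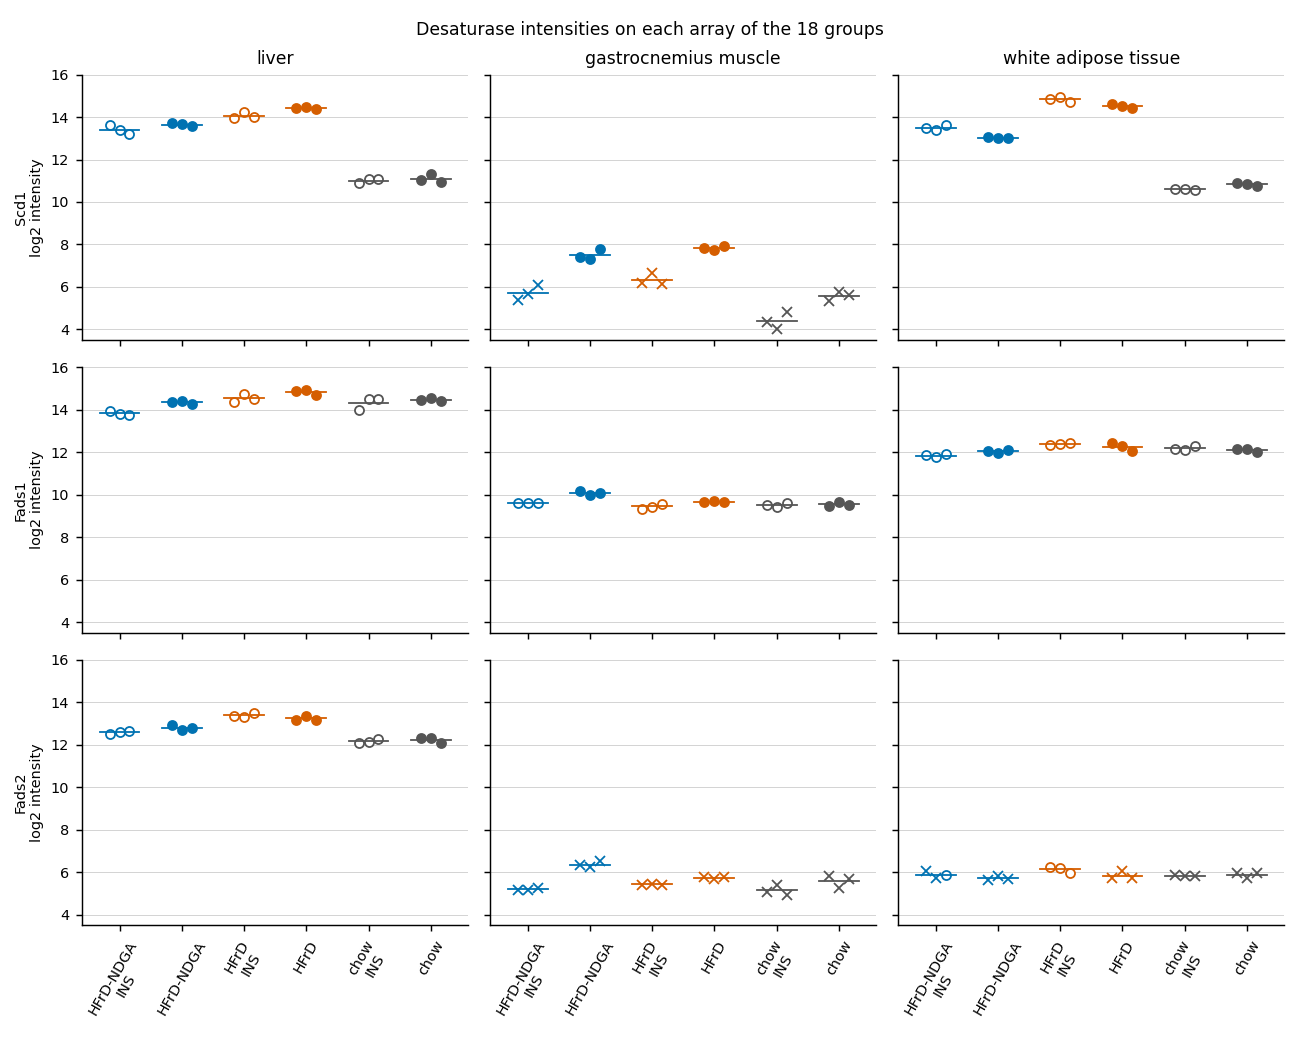
Log2 intensity of Scd1, Fads1 and Fads2 (rows) on each of the 54 arrays, by tissue (columns) and group (horizontal axis). Open circles are INS arrays, filled circles arrays without INS, crosses arrays not above background, and lines the group means. Fads1 lies in 3 tissue bands, Fads2 is bright in liver alone, and Scd1 in liver and adipose tissue is lowest on chow.

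In liver, HFrD increased Scd1 and Fads2 relative to chow, and HFrD-NDGA lowered both, without reaching the chow level. Scd1 read 13.71, 13.65 and 13.56 on the HFrD-NDGA arrays, 14.41, 14.47 and 14.40 on the HFrD arrays and 11.02, 11.33 and 10.93 on the chow arrays. The 3 diets did not overlap. The HFrD increase was 3.33 (SE 0.12) on the log2 scale, or 10.1-fold (adjusted p = 1.16e-09), and HFrD-NDGA fell by 0.79 (SE 0.12) against HFrD (adjusted p = 0.000408), to 0.579 of the HFrD level. Scd1 on HFrD-NDGA was still 5.84-fold higher than on chow, a change of 2.54 (SE 0.12, adjusted p = 5.2e-09). Of all genes, 19.4% passed for HFrD-NDGA against HFrD, 20.3% for HFrD against chow and 35.1% for HFrD-NDGA against chow. The Scd1 call against HFrD was lost when each array was centred on its median (-0.70, adjusted p = 0.0623).

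Fads2 in liver kept the same order at a smaller scale. Its intensities were 12.94, 12.71 and 12.77 on HFrD-NDGA, 13.18, 13.35 and 13.19 on HFrD and 12.30, 12.34 and 12.10 on chow, again with no overlap between diets. HFrD increased Fads2 by 0.99 (SE 0.08), 1.99-fold (adjusted p = 3.06e-06). HFrD-NDGA fell by 0.43 (SE 0.08) against HFrD (adjusted p = 0.00251) and stayed 0.56 (SE 0.08) above chow (adjusted p = 0.000252). Centring each array ended the call against HFrD (-0.36, adjusted p = 0.238).

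Fads1 in liver moved less. It read 14.37, 14.41 and 14.29 on HFrD-NDGA, 14.86, 14.92 and 14.69 on HFrD and 14.46, 14.57 and 14.40 on chow. The HFrD arrays stood above the others, and the HFrD-NDGA and chow arrays overlapped. HFrD-NDGA fell by 0.47 (SE 0.13) against HFrD (adjusted p = 0.0263), a call that was lost after centring (-0.29, adjusted p = 0.426), without scaling (-0.47, adjusted p = 0.103) and when any 1 of 5 arrays was left out (adjusted p up to 0.0985). HFrD against chow, at 0.35 (SE 0.13), did not pass (adjusted p = 0.0892), but did so after centring (0.73, adjusted p = 0.0266) and in a fit of the 9 arrays without INS alone (0.32, adjusted p = 0.024). The difference between HFrD-NDGA and chow was -0.12 (SE 0.13, adjusted p = 0.548).

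The liver arrays with INS gave the same calls for Scd1 and Fads2. Scd1 read 13.64, 13.37 and 13.20 on HFrD-NDGA, 13.97, 14.24 and 13.98 on HFrD and 10.88, 11.08 and 11.06 on chow. HFrD increased it by 3.06 (SE 0.12), 8.33-fold, and HFrD-NDGA fell by 0.66 (SE 0.12) against HFrD (adjusted p = 2.03e-09 and 0.002). Fads2 read 12.49, 12.59 and 12.67 on HFrD-NDGA, 13.36, 13.31 and 13.48 on HFrD and 12.08, 12.15 and 12.29 on chow. The increase on HFrD was 1.21 (SE 0.08), and HFrD-NDGA fell by 0.80 (SE 0.08) against HFrD (adjusted p = 6.15e-07 and 2.13e-05). Against chow, HFrD-NDGA was 2.40 (SE 0.12) higher for Scd1 (adjusted p = 1.47e-08) and 0.41 (SE 0.08) higher for Fads2 (adjusted p = 0.0041). Centring brought the last difference to 0.01, with an adjusted p of 1. The shares of all genes that passed among INS arrays were 17.4% for HFrD-NDGA against HFrD, 11.4% for HFrD against chow and 20.5% for HFrD-NDGA against chow.

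Fads1 was lower on HFrD-NDGA with INS than on both other diets with INS in liver. Its intensities were 13.96, 13.82 and 13.73 on HFrD-NDGA, 14.34, 14.75 and 14.49 on HFrD and 13.99, 14.50 and 14.50 on chow, with 1 chow array close to the HFrD-NDGA ones. HFrD-NDGA fell by 0.69 (SE 0.13) against HFrD and by 0.49 (SE 0.13) against chow (adjusted p = 0.00325 and 0.0203). The second call ended without scaling (-0.38, adjusted p = 0.111), in the fit of the INS arrays alone (-0.50, adjusted p = 0.0942) and without any 1 of 3 arrays (adjusted p up to 0.0855). HFrD against chow was 0.19 (SE 0.13, adjusted p = 0.449). The difference between the 2 label sets in the HFrD-NDGA against HFrD change did not pass for Scd1 (0.13, SE 0.17), Fads1 (-0.22, SE 0.19) or Fads2 (-0.36, SE 0.12), with adjusted p of 0.69, 0.495 and 0.058, where 15.1% of all genes did. That of Fads2 passed after centring (-0.96, adjusted p = 0.0262).

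**Figure D2:**
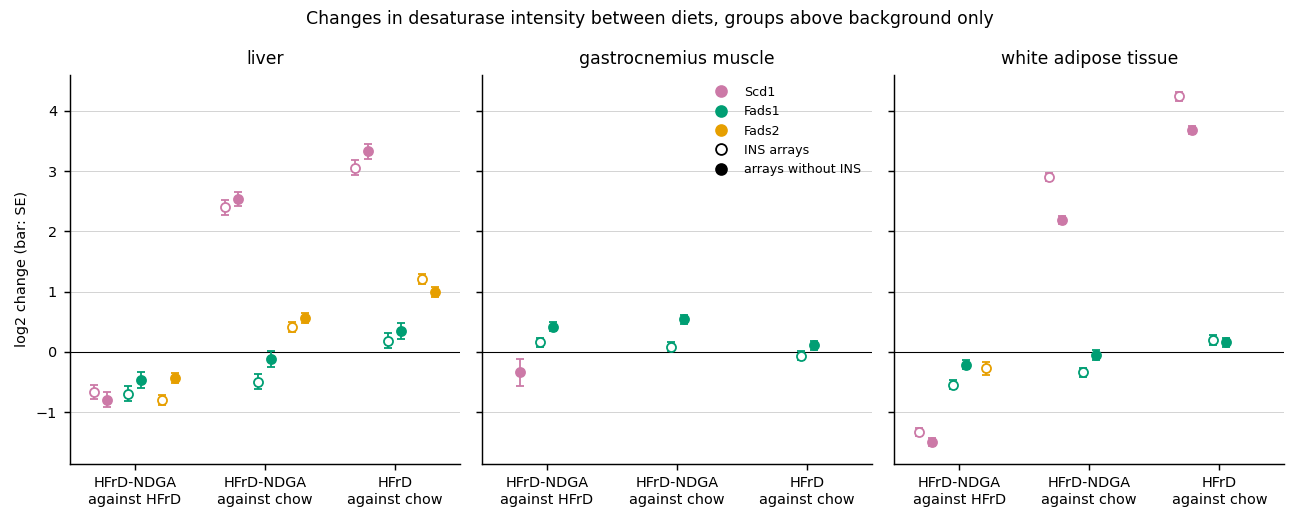
Log2 change between diets (vertical axis, bars SE) for each desaturase, by tissue and by comparison (horizontal axis). Open circles are INS arrays and filled circles arrays without INS, and a comparison is left out where 1 of its groups was on no array above background. The largest changes are those of Scd1 against chow in liver and adipose tissue.

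In adipose tissue, Scd1 was strongly increased on HFrD, and HFrD-NDGA had a level between those of HFrD and chow. It read 13.05, 13.02 and 13.03 on HFrD-NDGA, 14.61, 14.54 and 14.42 on HFrD and 10.91, 10.87 and 10.74 on chow, and the diets stood far apart. HFrD increased Scd1 by 3.68 (SE 0.07), 12.8-fold (adjusted p = 1.09e-13), HFrD-NDGA fell by 1.49 (SE 0.07) against HFrD, to 0.356 of its level (adjusted p = 1.04e-09), and HFrD-NDGA was 2.19 (SE 0.07) above chow, 4.58-fold (adjusted p = 7.22e-11). Over all genes 50.6% passed for HFrD-NDGA against HFrD, 54% for HFrD against chow and 23.1% for HFrD-NDGA against chow, so that a call as such is common here. With INS, Scd1 read 13.49, 13.39 and 13.61 on HFrD-NDGA, 14.84, 14.92 and 14.73 on HFrD and 10.62, 10.62 and 10.55 on chow. The INS changes were 4.24 (SE 0.07) for HFrD against chow, 18.8-fold, -1.33 (SE 0.07) for HFrD-NDGA against HFrD and 2.90 (SE 0.07) for HFrD-NDGA against chow (adjusted p = 3.35e-14, 1.46e-08 and 3.39e-12). All 6 of these Scd1 calls held under every alternative run.

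Fads1 in adipose tissue stayed within a narrow range. It read 12.06, 11.94 and 12.11 on HFrD-NDGA, 12.42, 12.27 and 12.07 on HFrD and 12.15, 12.13 and 11.99 on chow, and all 3 diets overlapped. HFrD-NDGA against HFrD was -0.21 (SE 0.08, adjusted p = 0.0369), but 0.10 after centring (adjusted p = 0.638), -0.01 without scaling (adjusted p = 1), and no longer called without any 1 of 4 arrays (adjusted p up to 0.172). HFrD against chow, at 0.16 (SE 0.08), did not pass (adjusted p = 0.108), passed without HFrD replicate 3 (0.25, adjusted p = 0.00962) and turned to -0.41 after centring (adjusted p = 0.0247). On the INS arrays, Fads1 read 11.85, 11.77 and 11.89 on HFrD-NDGA, 12.32, 12.39 and 12.42 on HFrD and 12.14, 12.11 and 12.27 on chow, and the HFrD-NDGA arrays lay under all others. There HFrD-NDGA fell by 0.54 (SE 0.08) against HFrD and by 0.34 (SE 0.08) against chow (adjusted p = 0.00025 and 0.0047). Centring ended both calls (-0.26 and -0.15, adjusted p = 0.24 and 0.553), and leaving out the scaling turned the second to 0.10 (adjusted p = 0.56). The shares of all genes called were 26% for HFrD-NDGA against HFrD, 24% for HFrD against chow and 31.5% for HFrD-NDGA against chow among INS arrays.

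Fads2 in adipose tissue stood at the edge of detection. It read 6.14 ± 0.16 on HFrD with INS (SD, n = 3), where all 3 arrays were above background, against 5.84 ± 0.03 on chow with INS, where none was. On HFrD-NDGA with INS, at 5.87 ± 0.17, 1 array was above background. The lowest level above background lay at 5.75 to 5.86 on the HFrD arrays with INS and at 6.42 to 6.55 on those without. HFrD against chow with INS came to at least 1.1-fold and did not pass (adjusted p = 0.0658), with an adjusted p of 0.00446 without scaling, 0.0407 after centring, 0.0356 with a higher floor and 0.0417 among detected genes alone.

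Transcripts of other cell types differed between the adipose groups. Summed over 5 seminal vesicle secretion genes, linear intensity was 2600 to 2830 on HFrD-NDGA, 151000 to 165000 on HFrD, where all 5 were above background on every array, and 222 to 261 on chow, where Svs1, Svs4 and Svs6 were on no array. The same sum on INS arrays was 1030 to 1120 on HFrD-NDGA, 512 to 598 on HFrD and 226 to 267 on chow. The rise of Scd1 on HFrD was 4.24 in the INS set and 3.68 in the set without INS. The sum of 8 skeletal muscle fibre genes was 1540 to 1630 on HFrD-NDGA, 6130 to 6810 on HFrD and 37400 to 38500 on chow without INS, and 1410 to 1490, 1830 to 1990 and 4580 to 4780 on the same diets with INS. Summed over 8 hepatocyte genes, intensity was 70100 to 74400 on HFrD with INS, the group in which Fads2 was above background on all 3 arrays and all 8 of these genes were too, and 44000 to 51200 in the other 5 adipose groups, where Apoa2 was on no array. The part of these transcripts in the Scd1, Fads1 and Fads2 values was not tested. The arrays of each labelled tissue carried that tissue's own markers.

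**Figure D3:**
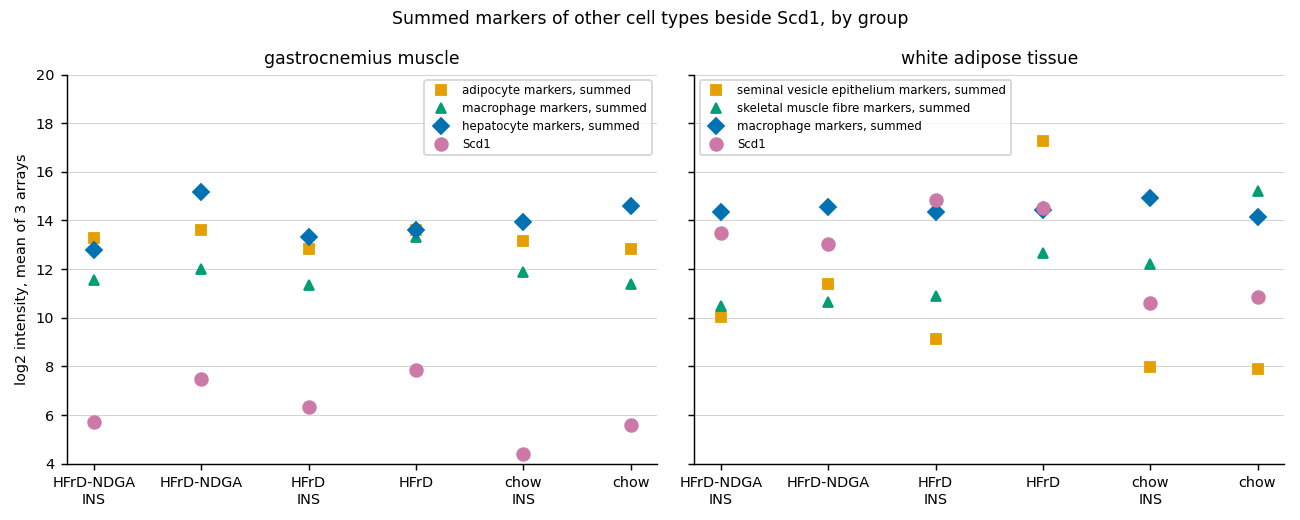
Log2 of the summed intensity of cell type markers (squares, triangles, diamonds) and log2 intensity of Scd1 (circles), means of 3 arrays, by group in muscle and adipose tissue. In adipose tissue the seminal vesicle sum is highest on HFrD without INS, and Scd1 is highest on HFrD with INS, followed by HFrD without INS. In muscle Scd1 is highest on HFrD and HFrD-NDGA without INS.

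In muscle, Scd1 rose above background on both fructose diets without INS and on no other group. It read 7.40, 7.30 and 7.79 on HFrD-NDGA, 7.84, 7.76 and 7.91 on HFrD and 5.36, 5.75 and 5.60 on chow, where no array was above background. HFrD-NDGA was at least 1.73-fold and HFrD at least 2.18-fold above chow (adjusted p = 0.00013 and 2.95e-06), against measured means of 7.50 ± 0.26, 7.84 ± 0.08 and 5.57 ± 0.19 (SD, n = 3 each). HFrD-NDGA against HFrD was -0.34 (SE 0.23) with overlapping arrays and did not pass (adjusted p = 0.283). With INS, Scd1 was on no array above background on any diet, at 5.73 ± 0.36 on HFrD-NDGA, 6.33 ± 0.29 on HFrD and 4.38 ± 0.41 on chow, so no fold is given. In muscle without INS, 39.1% of all genes passed for HFrD-NDGA against HFrD, 41.2% for HFrD against chow and 10.1% for HFrD-NDGA against chow.

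Markers of adipocytes, which express Scd1 strongly in rodents, were higher on both fructose diets than on chow in muscle without INS, as Scd1 was. With INS their sum was lowest on HFrD, where the Scd1 mean, not above background, was highest. Summed over 8 adipocyte genes, linear intensity was 11800 to 13200 on HFrD-NDGA, 11900 to 13200 on HFrD and 6970 to 7810 on chow without INS, and 9740 to 10200, 7050 to 7500 and 8480 to 9450 on the same diets with INS. Of the 8 genes, 6 or 7 were above background on all arrays of a group. Plin was above background in none of the 6 muscle groups. Macrophage genes summed to 3950 to 4530 on HFrD-NDGA, 9800 to 10500 on HFrD and 2630 to 2680 on chow without INS, with Cd163 above background in no group, and hepatocyte genes to 36500 to 37600, 12400 to 12700 and 24100 to 26100. The part of these transcripts in the muscle values was not tested.

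Fads1 in muscle was raised on HFrD-NDGA without INS. It read 10.19, 9.98 and 10.10 on HFrD-NDGA, 9.64, 9.69 and 9.67 on HFrD and 9.48, 9.67 and 9.52 on chow. All HFrD-NDGA arrays stood above all others. The same group had the highest hepatocyte sum of the muscle groups, 36500 to 37600, and its part in the Fads1 values was not tested. HFrD-NDGA was 0.42 (SE 0.07) above HFrD, 1.34-fold, and 0.54 (SE 0.07) above chow, 1.45-fold (adjusted p = 0.000263 and 0.000289), while HFrD against chow was 0.11 (SE 0.07, adjusted p = 0.235). Without scaling between arrays the first difference was 0.08 (adjusted p = 0.75) and HFrD against chow passed at 0.43 (adjusted p = 0.0117). On the INS arrays, Fads1 read 9.59, 9.61 and 9.62 on HFrD-NDGA, 9.34, 9.42 and 9.58 on HFrD and 9.50, 9.42 and 9.61 on chow. None of the 3 diet comparisons passed there, with changes of 0.16, 0.09 and -0.06 (SE 0.07 each) for HFrD-NDGA against HFrD, HFrD-NDGA against chow and HFrD against chow (adjusted p = 0.167, 0.467 and 0.644), where 15.5%, 12.6% and 24% of all genes did. Fads2 was above background on no muscle array, with group means between 5.14 and 6.36, and is given no fold.

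The groups with INS were set against those without on each diet. In liver, Scd1 and Fads2 passed on no diet: Scd1 differed by -0.24, -0.37 and -0.09 (SE 0.12 each, adjusted p = 0.194, 0.132 and 0.681) and Fads2 by -0.22, 0.14 and -0.07 (SE 0.08 each, adjusted p = 0.0823, 0.465 and 0.613) on HFrD-NDGA, HFrD and chow. After centring, both passed on HFrD-NDGA (-0.68 and -0.74, adjusted p = 0.0416 and 0.0126). Fads1 in liver fell by 0.52 (SE 0.13) on HFrD-NDGA with INS (adjusted p = 0.0168). That call was lost without scaling (-0.41, adjusted p = 0.0934) and without either of 2 arrays (adjusted p up to 0.0682). On HFrD and chow it was -0.30 and -0.15 (SE 0.13 each, adjusted p = 0.304 and 0.498). The shares of all genes called in these 3 liver comparisons were 20.4%, 4.23% and 12.1%.

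In muscle, Scd1 was at least 1.76-fold lower with INS than without on HFrD-NDGA and at least 2.16-fold lower on HFrD (adjusted p = 0.000133 and 0.000114). Fads1 in muscle fell by 0.49 (SE 0.07) with INS on HFrD-NDGA and by 0.22 (SE 0.07) on HFrD (adjusted p = 0.000325 and 0.0213), and differed by -0.05 (SE 0.07) on chow (adjusted p = 0.763). The call on HFrD was lost after centring (-0.25, adjusted p = 0.0636) and without any 1 of 4 arrays (adjusted p up to 0.0975). Of all genes, 16.3% passed on HFrD-NDGA, 42.1% on HFrD and 22.3% on chow. The hepatocyte sum in muscle was 6860 to 7180 with INS and 36500 to 37600 without on HFrD-NDGA, 10200 to 10500 and 12400 to 12700 on HFrD, and 15200 to 16100 and 24100 to 26100 on chow. The macrophage sum was 2960 to 3070 with INS and 3950 to 4530 without on HFrD-NDGA, 2500 to 2730 and 9800 to 10500 on HFrD, and 3740 to 3770 and 2630 to 2680 on chow. Their part in these differences was not tested.

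In adipose tissue, Scd1 with INS was 0.46 (SE 0.07) higher on HFrD-NDGA and 0.31 (SE 0.07) higher on HFrD (adjusted p = 0.000626 and 0.0017), and 0.25 (SE 0.07) lower on chow, a change of -0.25 (adjusted p = 0.0156). In each of the 3 diets the INS arrays did not overlap those without INS. The chow call was lost without any 1 of 3 arrays (adjusted p up to 0.0705) and without scaling (-0.22, adjusted p = 0.197), and the HFrD-NDGA call after centring (0.46, adjusted p = 0.141). Fads1 differed by -0.20, 0.13 and 0.08 (SE 0.08 each) on HFrD-NDGA, HFrD and chow and passed on none (adjusted p = 0.157, 0.215 and 0.572). On HFrD it passed without scaling (0.43, adjusted p = 0.00493) and without HFrD replicate 1 (0.21, adjusted p = 0.0353). Fads2 had an adjusted p of 0.0358 for INS against no INS on HFrD, with overlapping arrays, none of them above background without INS, and an adjusted p up to 0.137 as single arrays were left out. The shares of all genes called were 8.11%, 46.3% and 22% on HFrD-NDGA, HFrD and chow. The seminal vesicle sum on HFrD was 512 to 598 with INS and 151000 to 165000 without. The muscle fibre sum on chow was 4580 to 4780 with INS and 37400 to 38500 without. Their part in these differences was not tested.

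**Figure D4:**
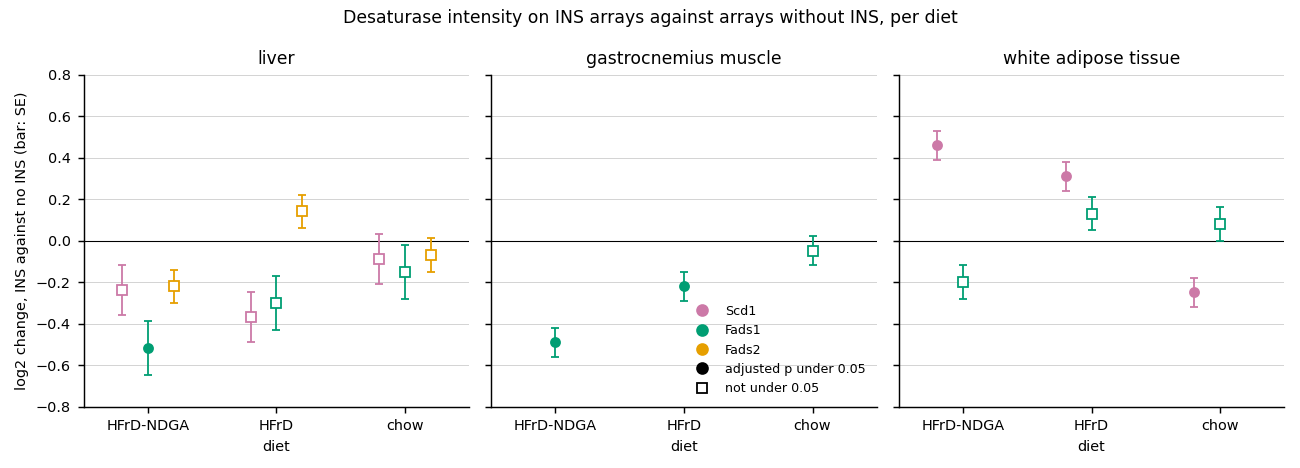
Log2 change of INS arrays against arrays without INS (vertical axis, bars SE) per diet (horizontal axis) and tissue. Filled circles have an adjusted p under 0.05 and open squares do not, and genes not above background on either side are left out. Scd1 in adipose tissue is higher with INS on both fructose diets and lower on chow, and Fads1 in muscle is lower with INS on HFrD-NDGA and HFrD.

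The size of the diet changes was compared between label sets and between tissues. The Scd1 increase on HFrD in adipose tissue was 0.55 (SE 0.09) larger with INS than without (adjusted p = 0.00032), where 43.2% of all genes passed. Its fall on HFrD-NDGA against HFrD was deeper in adipose tissue than in liver and muscle, by 0.70 (SE 0.22) for liver minus adipose tissue and -1.15 (SE 0.22) for adipose tissue minus muscle (adjusted p = 0.0101 and 3.21e-05), with 39.2% and 46.6% of all genes called. Both calls ended after centring (0.34 and -0.65, adjusted p = 0.408 and 0.0753) and without scaling (0.27 and -0.52, adjusted p = 0.431 and 0.0856). The Scd1 rise on HFrD differed by -0.35 (SE 0.22) for liver minus adipose tissue and did not pass (adjusted p = 0.192), where 51.5% of all genes did. That difference passed with the sign turned after centring (1.35, adjusted p = 0.000158) and without scaling (0.59, adjusted p = 0.049). The part of seminal vesicle and muscle fibre transcripts in the adipose values was not tested.

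For Fads1, the HFrD-NDGA against HFrD change was 0.89 (SE 0.14) lower in liver than in muscle, a difference of -0.89 (adjusted p = 2.49e-06), and that of adipose tissue minus muscle was -0.64 (SE 0.14, adjusted p = 0.000247). Of all genes, 35.3% and 46.6% passed. The second difference was -0.23 after centring and -0.09 without scaling (adjusted p = 0.46 and 0.785). Between label sets, that change was lower with INS in muscle, by -0.27 (SE 0.10, adjusted p = 0.0491), and in adipose tissue, by -0.33 (SE 0.11, adjusted p = 0.0329), where 37.1% and 36.8% of all genes passed. The muscle difference was 0.07 without scaling (adjusted p = 0.92), and its call was lost under 6 of 9 alternatives and without any 1 of 10 of the 12 arrays. The adipose call was lost after centring and without scaling (-0.36 each, adjusted p = 0.247 and 0.106) and without any 1 of 6 of the 12 arrays (adjusted p up to 0.0777). The part of hepatocyte transcripts in the muscle values of Fads1 was not tested.

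Genes of fatty acid synthesis, whose enzymes make the saturated fatty acids that Scd1 uses, rose with Scd1 and Fads2 in liver. Of 10 measured genes, HFrD had all 10 above chow and none below it, with a median change of 1.87, where the median of all genes was 0. Of all genes, 12.8% were called higher and 7.5% lower for HFrD against chow in liver, and 10.1% higher and 9.36% lower for HFrD-NDGA against HFrD. Me1, the cytosolic malic enzyme that makes NADPH, rose by 2.99 (SE 0.17) and the fatty acid synthase Fasn by 2.80 (SE 0.09), with adjusted p of 6.1e-08 and 2.26e-10. Against HFrD, HFrD-NDGA had 7 lower and none higher, with a median of -0.52, and 3 lower after centring. Fasn fell by 0.98 (SE 0.09), while Me1 differed by 0.21 (SE 0.17), with adjusted p of 2.74e-06 and 0.465. On the INS arrays, 8 were higher on HFrD than on chow, where 5.08% of all genes were higher and 6.3% lower, and all 10 were lower on HFrD-NDGA than on HFrD, where 7.19% were higher and 10.2% lower.

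In the other tissues fewer synthesis genes passed. In adipose tissue, where Scd1 rose 12.8-fold on HFrD, 1 of the 10 was higher and 3 were lower than on chow, with a median of -0.16 against -0.11 for all genes, and after centring none was higher and 9 were lower (none and 2 without scaling). Fasn there was 0.06 (SE 0.09, adjusted p = 0.608), and turned to -0.52 after centring and to -0.05 without scaling. In muscle, where Scd1 also rose on HFrD, 5 were higher and 1 lower (6 and none without scaling). Adipose tissue had 16.9% of all genes higher and 37.2% lower for HFrD against chow, and 34% higher and 16.6% lower for HFrD-NDGA against HFrD. For muscle these shares were 18.8% higher and 22.4% lower, and 20.3% higher and 18.7% lower.

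The elongases, which lengthen the products between the desaturation steps, showed a mixed picture. Of 13 genes of the elongation cycle in liver, HFrD had 5 above and none below chow (median 0.18), and HFrD-NDGA had 2 above and 2 below HFrD (median -0.03), or none and 2 without scaling. Elovl2 and Elovl5, which act on polyunsaturated fatty acids, rose by 1.28 (SE 0.07) and 0.83 (SE 0.06) on HFrD and fell by 0.89 (SE 0.07) and 1.10 (SE 0.06) on HFrD-NDGA (adjusted p = 7.8e-08, 9.07e-07, 1.82e-06 and 3.53e-08). Elovl6, which lengthens palmitate to the stearate that Scd1 uses, rose by 1.65 (SE 0.15) on HFrD and by a further 0.54 (SE 0.15) on HFrD-NDGA (adjusted p = 6.86e-06 and 0.0244), of which the second was lost without scaling (0.50, adjusted p = 0.0533). In muscle 6 were lower and none higher on HFrD-NDGA than on HFrD, where 18.7% of all genes were lower and 20.3% higher. In adipose tissue 7 were higher and 1 lower, where 34% of all genes were higher and 16.6% lower. Elovl5 rose there by 1.27 (SE 0.05, adjusted p = 1.56e-10).

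Among 6 genes that carry electrons to the desaturases, HFrD had 2 above and 1 below chow in liver, and HFrD-NDGA had none above and 2 below HFrD (none after centring). The shares of all genes were 12.8% higher and 7.5% lower, and 10.1% higher and 9.36% lower, in the same order. The reductase Cyb5r3 rose by 0.28 (SE 0.05) and fell by 0.38 (SE 0.05) in these comparisons (adjusted p = 0.00173 and 0.000133), and the fall was lost after centring (-0.27, adjusted p = 0.351). In adipose tissue HFrD had none above and 4 below chow, where 16.9% of all genes were higher and 37.2% lower. Among the 4, Cyb5r2 fell by 1.14 (SE 0.07, adjusted p = 3.35e-08). HFrD-NDGA against HFrD had 3 higher and none lower there, where 34% of all genes were higher and 16.6% lower. Cyb5r1 rose by 0.65 in that comparison (SE 0.05, adjusted p = 3.56e-07). In muscle HFrD had 1 above and 2 below chow, where 18.8% of all genes were higher and 22.4% lower. Without scaling these counts were 1 and none.

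Of 13 regulators in liver, HFrD had 6 above and 2 below chow, and HFrD-NDGA had 3 above and 3 below HFrD. After centring these counts were 6 and none, and 2 and 1, and without scaling 6 and none, and 1 and 3. The shares of all genes were 12.8% higher and 7.5% lower on HFrD against chow, and 10.1% and 9.36% on HFrD-NDGA against HFrD. Srebf1, which encodes SREBP-1, rose by 0.66 (SE 0.08) on HFrD and differed by -0.14 (SE 0.08) on HFrD-NDGA (adjusted p = 0.000129 and 0.304). Insig1, which holds the SREBP complex in the endoplasmic reticulum, rose by 1.39 (SE 0.11) and fell by 0.81 (SE 0.11) in the same order (adjusted p = 1.5e-06 and 0.000161). Ppara, the fatty acid receptor, rose by 0.83 (SE 0.13) on HFrD-NDGA in liver and by 1.43 (SE 0.17) in muscle (adjusted p = 0.000455 and 1.29e-05). Muscle had 8 higher and 1 lower on HFrD-NDGA than on HFrD, where 20.3% of all genes were higher and 18.7% lower. Without scaling these counts were 3 and 3. Srebf1 rose by 0.93 in that muscle comparison (SE 0.07, adjusted p = 3.72e-07). The hepatocyte sum in muscle without INS was 36500 to 37600 on HFrD-NDGA and 12400 to 12700 on HFrD. Its part in the muscle values of Srebf1, Ppara and the other regulators was not tested. Adipose tissue had 8 higher and 2 lower on HFrD-NDGA than on HFrD, where 34% of all genes were higher and 16.6% lower. On HFrD it had none above and 7 below chow, where 16.9% of all genes were higher and 37.2% lower. After centring 11 were below chow, and without scaling 4.

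Peroxisomal genes, which carry out the last shortening of very long polyunsaturated fatty acids made with Fads2, moved the other way from the desaturases in liver on HFrD-NDGA. Of 7 genes, 5 were higher and 1 lower on HFrD-NDGA than on HFrD (median 0.68), where 10.1% of all genes were higher and 9.36% lower. The transporter Abcd3 rose by 1.07 (SE 0.06, adjusted p = 4.05e-08). The transporter Abcd2 was at least 2.02-fold higher (adjusted p = 7.75e-06) and on no HFrD array above background. HFrD against chow had 3 higher and none lower, where 12.8% of all genes were higher and 7.5% lower. After centring these counts were 5 and none. In muscle and adipose tissue, 4 of the 7 were each higher on HFrD-NDGA than on HFrD, with 1 and 0 lower, but 1 higher and 1 lower in muscle without scaling and 6 higher in adipose tissue after centring. The shares of all genes were 20.3% higher and 18.7% lower in muscle, and 34% and 16.6% in adipose tissue. The part of hepatocyte transcripts in the muscle values was not tested.

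Of 6 other desaturase genes measured, HFrD had 1 above and 1 below chow in liver, where 12.8% of all genes were higher and 7.5% lower. HFrD-NDGA there had 2 of the 6 above and none below HFrD, where 10.1% of all genes were higher and 9.36% lower. The largest change was that of the symbol Scd, which the sources used here do not tie to 1 gene: it is an older name of Scd2 and the present RefSeq name of the gene that the array calls Scd1. Its brightest probe averaged 10.30 on HFrD-NDGA, 8.51 on HFrD and 8.07 on chow in liver, a rise of 1.80 (SE 0.06) on HFrD-NDGA against HFrD (adjusted p = 2.49e-10), where Scd1 fell by 0.79. A second Scd probe averaged 8.11, 6.29 and 6.33 on those diets, and the third was above background on none of their arrays. With INS the brightest probe averaged 9.41 on HFrD-NDGA, 8.92 on HFrD and 8.58 on chow in liver. In muscle Scd rose by 1.47 (SE 0.09) on HFrD and fell by 0.99 (SE 0.09) on HFrD-NDGA against HFrD (adjusted p = 1.8e-08 and 9.38e-07). In adipose tissue on HFrD, Scd differed by -0.06 (SE 0.09, adjusted p = 0.646), and by 0.06 without scaling, where Scd1 rose 12.8-fold. Fads6, a desaturase-like gene, rose by 1.91 (SE 0.25) there and fell by 1.63 (SE 0.25) on HFrD-NDGA (adjusted p = 2.26e-05 and 9.23e-05). In these adipose groups without INS, the seminal vesicle sum was 2600 to 2830 on HFrD-NDGA, 151000 to 165000 on HFrD and 222 to 261 on chow. Its part in the Fads6 values was not tested. Degs2, which acts on sphingolipids, was called in none of the 3 tissues for HFrD-NDGA against HFrD or HFrD against chow.

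Among themselves, the desaturases followed each other to different degrees over the group means, as a description over points that share arrays, pools and scaling. Over the 6 liver groups, Pearson's r was 0.913 for Scd1 and Fads2, 0.466 for Fads1 and Fads2 and 0.192 for Scd1 and Fads1. Over the 6 adipose groups it was 0.275 for Scd1 and Fads1. Over all 18 groups after each tissue's mean was subtracted, r was 0.313 for Scd1 and Fads1, with Scd1 above background on no array of 4 muscle groups. No such r is given for Fads2, which was above background on no array of 10 of the 18 groups.

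Among 14076 candidate genes, those most like Scd1 over the 18 group means were Dnajb1 (r = 0.96), Lrrc59 (0.947), Acly (0.946), Prr13 (0.94) and Abhd5 (0.938). Acly makes cytosolic acetyl-CoA for fatty acid synthesis, and Abhd5 activates triglyceride lipase. Fads1 was most like Ceacam1 (0.992), Acp2, Pcbd1 and LOC100362859 (0.991 each), and Fads2 most like the fructose kinase Khk (0.997), Hsd17b13 (0.997), Bbox1, the glucokinase regulator Gckr and Ak3l1 (0.996 each), patterns set largely by tissue. After each tissue's mean was subtracted, with those 4 muscle groups included, the genes nearest to Scd1 were Akt1 (0.8), Taok1 (0.789), Eif1a (0.786), Lpcat3 (0.78), which puts polyunsaturated chains into phospholipids, and Gmfb (0.769). Those nearest to Fads1 were LOC500420 (0.795), the sterol synthesis enzyme Nsdhl (0.779), Cd164 (0.735), Mlc1 (0.719) and Rwdd2b (0.712).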

How the data were processed

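RNA was measured on Rat OneArray chips, 54 single-colour arrays in 18 groups. The deposited values, in a table named normalized, are background-subtracted linear intensities per probe with a detection p-value given by the authors. They run from -44 to 65506, with array medians of 71 to 193, so that no scaling between arrays shows, and a second deposited table holds the same 1315332 intensities. Per array, 49.3% to 63.2% of probes were above background (detection p under 0.05). The number of arrays limits the precision.

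Intensities were quantile normalized over all 54 arrays, as the methods name a quantile step, raised to a floor of 16 (9.41% to 26.8% of values per array lay under it) and taken as log2. Of 24358 probes, 21270 had 1 symbol, 1175 had several (tested, never named) and 1913 had none (left out). The brightest probe stood for a gene. Groups came from the labels. Diet and INS comparisons were fitted on the 18 arrays of a tissue and tissue comparisons on all 54, with limma 3.58.1 (lmFit, eBayes) in R 4.3.3. Benjamini-Hochberg adjustment ran over 19802 genes, and an adjusted p under 0.05 counted as called. On simulated data the fit recovered 87%, 92% and 96% of 200 genes changed by 1 on the log2 scale in HFrD against chow in liver, muscle and adipose tissue, and 5.43%, 8% and 5.88% of its calls there were false. The simulation drew independent normal noise around a single mean per gene and changed only brighter genes. It left out the scaling, so these rates do not cover effects of scaling or of larger shares of changed genes. The methods name an analysis of variance, tried as an ordinary linear model. Other alternatives were the scaling, floor, offset, probe rule, detection filter, arrays fitted together and each array left out.

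Named genes are the 3 desaturases, the 3 genes per pathway list with the largest diet change without INS, and the 5 genes most like each desaturase, of which some are not reported here (nor are those of Fads2 within tissues, for want of detection). These members, lists and marker lists were chosen with earlier results of these data known. Authors' fold changes were not used.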

Additional observations from a re-analysis of the deposited data

Results flagged for a closer look

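The differences below, between tissues or label sets, passed the test of the difference itself. The Scd1 change on HFrD against chow in adipose tissue differed by 0.55 (SE 0.09) between INS and no INS (adjusted p = 0.00032), being 4.24 with INS and 3.68 without. The seminal vesicle sum on HFrD was 512 to 598 with INS and 151000 to 165000 without. The muscle fibre sum on chow was 4580 to 4780 and 37400 to 38500. Their part in the difference was not tested.

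The Scd1 change on HFrD-NDGA against HFrD differed by 0.70 (SE 0.22) for liver minus adipose tissue and by -1.15 (SE 0.22) for adipose tissue minus muscle (adjusted p = 0.0101 and 3.21e-05). Both calls were lost after centring (0.34 and -0.65, adjusted p = 0.408 and 0.0753) and without scaling (0.27 and -0.52, adjusted p = 0.431 and 0.0856). The single changes were -0.79 in liver, -1.49 in adipose tissue and -0.34 in muscle.

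The Fads1 change on HFrD-NDGA against HFrD differed by -0.89 (SE 0.14) for liver minus muscle and by -0.64 (SE 0.14) for adipose tissue minus muscle (adjusted p = 2.49e-06 and 0.000247). The second call was lost after centring (-0.23, adjusted p = 0.46) and without scaling (-0.09, adjusted p = 0.785). That change was -0.47 in liver, -0.21 in adipose tissue and 0.42 in muscle. Between INS and no INS it differed by -0.27 (SE 0.10) in muscle and by -0.33 (SE 0.11) in adipose tissue (adjusted p = 0.0491 and 0.0329), with 0.16 and -0.54 on the INS arrays. The muscle call was lost without any 1 of 10 of the 12 arrays, after centring (-0.07, adjusted p = 0.824) and without scaling (0.07, adjusted p = 0.92). The adipose call was lost without any 1 of 6 of the 12 arrays (adjusted p up to 0.0777), after centring and without scaling (-0.36 each, adjusted p = 0.247 and 0.106). In muscle without INS the hepatocyte sum was 36500 to 37600 on HFrD-NDGA and 12400 to 12700 on HFrD. Its part in the Fads1 differences was not tested. Groups of 3 arrays are too small for a check of single outlying arrays.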

How the results depend on the processing

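No paired analysis was possible because the replicate numbers only follow the order of the arrays and pair nothing across groups. Of the diet changes of the 3 genes without INS, those of Scd1 in adipose tissue and muscle and of Scd1 and Fads2 against chow in liver kept their direction and side of the threshold under every alternative.

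Centring each array on its median ended the HFrD-NDGA against HFrD calls in liver for Scd1 (-0.70), Fads1 (-0.29) and Fads2 (-0.36), brought Fads1 on HFrD against chow in liver to 0.73, which passed, and turned Fads1 in adipose tissue to -0.41 on HFrD against chow and 0.10 on HFrD-NDGA against HFrD. It also turned Scd1 on chow, liver against adipose tissue, to -0.47, the Scd1 difference of liver minus adipose tissue on HFrD to 1.35 and the Fads1 difference of adipose tissue minus muscle on HFrD to -0.57. Leaving out the scaling gave Fads1 on HFrD-NDGA against HFrD -0.47 in liver, -0.01 in adipose tissue and 0.08 in muscle, none of which passed, and 0.43 on HFrD against chow in muscle, which did. It turned that Scd1 difference of liver minus adipose tissue to 0.59, the Fads1 difference between INS and no INS in muscle to 0.07 and Fads1 on HFrD-NDGA against chow with INS in adipose tissue to 0.10. Fitting the 9 arrays of a label set alone gave Fads1 0.32 on HFrD against chow in liver, which passed, and -0.18 on HFrD-NDGA against HFrD in adipose tissue, which did not. The causes were not tested. Centring moved the median of all genes from 0 to 0.09 in liver and from -0.11 to -0.31 in adipose tissue on HFrD against chow.

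With single arrays left out, Fads1 ran from -0.53 to -0.42 in liver and from -0.30 to -0.13 in adipose tissue on HFrD-NDGA against HFrD (adjusted p up to 0.0985 and 0.172), and from 0.08 to 0.25 on HFrD against chow in adipose tissue. Its liver call was lost without replicate 1 or 2 of HFrD or any HFrD-NDGA array, and its adipose call without replicate 1 or 2 of either diet. Fewer arrays were then fitted.

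The number of genes called moved by over 1.5 times in these comparisons. In liver, HFrD-NDGA against HFrD had 3850 genes, or 2172 centred, HFrD against chow with INS 2252, or 693 centred, HFrD-NDGA against chow with INS 4054, or 7407 unscaled, INS against no INS on HFrD-NDGA 4038, or 6839 unscaled, on HFrD 838, or 127 centred, 368 unscaled, 472 with a floor of 1 and 502 with an offset of 16, and on chow 2391, or 6693 centred and 1074 unscaled. In muscle, HFrD-NDGA against chow had 2009, or 1155 centred, 674 unscaled and 1151 in the 9-array fit. With INS it had 2496, or 1019 unscaled, and HFrD-NDGA against HFrD 3079, or 1395 unscaled. INS against no INS had 3227 on HFrD-NDGA, or 1340 unscaled, and 4422 on chow, or 2751 unscaled. In adipose tissue with INS, HFrD against chow had 4747, or 2702 centred and 7993 unscaled, and HFrD-NDGA against chow 6243, or 3844 centred, and INS against no INS on HFrD-NDGA had 1605, or 634 centred and 3765 unscaled. As single arrays were left out, liver HFrD against chow fell to 2584 without HFrD replicate 3, HFrD-NDGA against HFrD with INS to 2232 without HFrD replicate 3 and HFrD-NDGA against chow with INS to 2616 without HFrD-NDGA replicate 3. INS against no INS in liver fell to 2322 on HFrD-NDGA without replicate 2 and to 2522 without INS replicate 3, to between 390 and 496 on HFrD without any HFrD array or INS replicate 1 or 3, and to between 750 and 1472 on chow without replicate 1 or 3 or any INS array. In adipose tissue it fell to 1056 on HFrD-NDGA without INS replicate 1. The share of called genes that were higher moved by over 10 percentage points in 17 of 27 comparisons after centring and in 18 without scaling. Quantile normalization within the tissue, the other floor, the mean of probes, the detection filter and the ordinary linear model changed no call of a diet change without INS.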
